A study of Mus musculus with 6 samples.

Results

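Metallothioneins are small, cysteine-rich proteins that hold zinc and copper ions, and 8 mouse genes of zinc handling were followed here in sorted astrocytes: the metallothioneins Mt1, Mt2 and Mt3, the zinc-sensing transcription factor gene Mtf1, the exporters Slc30a1 and Slc30a10, and the importers Slc39a1 and Slc39a14. They were taken by gene symbol, all 8 were found among the 45777 genes of the deposited table, and all 8 were among the 22337 genes with at least 1 read count in every sample, which were the genes tested. Their lowest count in any sample was 165, for Slc39a1.

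The study asked how raised blood glucose changes astrocytes, the glial cells that enwrap synapses and blood vessels. Male Aldh1l1 cre/ERT2;tdTomato fl/fl mice on a C57BL/6 background, whose genotype the sample labels give as WT, received tamoxifen on 5 consecutive days, which turns on the red protein tdTomato in cells where the Aldh1l1 promoter drives the recombinase. At 8 weeks of age they were injected once with streptozotocin (STZ), which destroys beta cells of the pancreas and so stops insulin release, in citrate buffer, or with buffer alone (vehicle), and STZ mice were kept if their fasting blood glucose was raised. The brains were dissociated, tdTomato-positive cells were sorted, and cells of 3 brains were pooled into each sample, giving 3 vehicle and 3 STZ samples of polyA RNA. All groups therefore carried the same alleles and had received tamoxifen, and the STZ group is defined by both the toxin and the selection on glucose. Each sample is a separate pool, so p-values measure the spread between pools and not between single mice.

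Zinc in the cytosol is set by transport and by binding. Transporters of the Slc30a (ZnT) family move zinc out of the cytosol, those of the Slc39a (ZIP) family move it in, and metallothioneins bind what is free. When zinc is plentiful, MTF-1, the product of Mtf1, binds metal response elements near the starts of Mt1, Mt2 and Slc30a1 and turns them on, while Mt1 and Mt2 also respond to glucocorticoids, cytokines and oxidative stress. Mt3 is the brain's own metallothionein and is known to respond little to metals. SLC30A10 is best known as a manganese exporter, and SLC39A14 (ZIP14) carries zinc, manganese and iron.

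The metallothionein genes lie side by side on the forward strand of chromosome 8 in GRCm38.p6, the assembly behind the mm10 build to which the reads were aligned. Mt3 spans chr8:94152607-94154148, Mt2 spans chr8:94172618-94173567 and Mt1 spans chr8:94178883-94180327, with 18469 bases between Mt3 and Mt2 and 5315 bases between Mt2 and Mt1. Each has 3 exons. Their coding sequences, read from the GENCODE M21 transcripts of the same assembly without the stop codon, are shown because the cysteine codons (in capitals) carry the metal binding and because reads must be told apart between such similar genes.
Mt1: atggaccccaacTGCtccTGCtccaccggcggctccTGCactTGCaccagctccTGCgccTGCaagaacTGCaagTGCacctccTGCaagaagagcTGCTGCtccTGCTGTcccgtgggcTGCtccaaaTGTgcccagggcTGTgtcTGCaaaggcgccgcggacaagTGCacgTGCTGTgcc
Mt2: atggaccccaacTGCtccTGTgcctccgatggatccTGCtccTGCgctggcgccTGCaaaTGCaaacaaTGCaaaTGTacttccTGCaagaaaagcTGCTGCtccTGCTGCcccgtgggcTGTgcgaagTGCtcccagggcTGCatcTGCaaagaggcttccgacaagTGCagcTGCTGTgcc
Mt3: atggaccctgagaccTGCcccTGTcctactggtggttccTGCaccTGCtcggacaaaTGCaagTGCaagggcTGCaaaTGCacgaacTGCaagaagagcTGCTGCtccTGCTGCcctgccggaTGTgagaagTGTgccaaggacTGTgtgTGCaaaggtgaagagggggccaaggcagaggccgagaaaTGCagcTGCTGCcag
Mt1 and Mt2 each had 61 codons and 20 cysteine codons, 32.8% of all codons, and Mt3 had 68 codons with the same 20 cysteines, 29.4%. Mt1 and Mt2 shared 79.2% of their 183 coding bases, Mt1 and Mt3 72.1% and Mt2 and Mt3 74.9% of the aligned bases. The longest run of identical bases was 20 between Mt1 and Mt2, 27 between Mt1 and Mt3 and 20 between Mt2 and Mt3, so any stretch longer than these runs differs between the genes in at least 1 base.

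For Mt1, Mt2 and Slc30a1, genes that MTF-1 is known to turn on, the sequence is shown around the RefSeq start of GRCm38.p6. It runs from 250 bases before to 30 bases after that start, on the forward strand. Capitals mark the core of the metal response element, searched as TGCACNC and TGCGCNC on both strands. Where the match is on the reverse strand, its reverse complement is in capitals.
Mt1, chr8:94178839-94179118: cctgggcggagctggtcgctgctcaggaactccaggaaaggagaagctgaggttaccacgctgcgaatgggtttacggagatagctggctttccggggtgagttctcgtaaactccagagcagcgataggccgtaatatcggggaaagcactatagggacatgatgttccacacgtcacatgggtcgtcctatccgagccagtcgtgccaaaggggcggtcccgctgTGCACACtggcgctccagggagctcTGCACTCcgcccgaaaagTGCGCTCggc
Mt2, chr8:94172368-94172647: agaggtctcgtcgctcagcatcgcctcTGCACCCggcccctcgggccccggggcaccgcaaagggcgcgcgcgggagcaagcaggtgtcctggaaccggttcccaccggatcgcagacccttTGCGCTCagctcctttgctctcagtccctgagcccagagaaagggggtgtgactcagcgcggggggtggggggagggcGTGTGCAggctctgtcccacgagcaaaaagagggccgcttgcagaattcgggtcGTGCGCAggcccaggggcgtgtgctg
Slc30a1, chr1:191906531-191906810: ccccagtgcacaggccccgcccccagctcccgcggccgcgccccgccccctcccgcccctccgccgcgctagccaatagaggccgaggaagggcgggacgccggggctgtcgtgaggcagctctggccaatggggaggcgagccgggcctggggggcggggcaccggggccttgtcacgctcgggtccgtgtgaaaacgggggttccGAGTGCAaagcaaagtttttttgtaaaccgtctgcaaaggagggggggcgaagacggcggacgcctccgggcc
Counted over the whole windows of 300 bases, which run 50 bases past the start, the Mt1 window held 3 matches, the Mt2 window 4, the Slc30a1 window 2 and the Mt3 window 1. Slc30a10 also had 3, of which a pair on opposite strands overlap each other, whereas Mtf1 and Slc39a1 had 0, and no window was given for Slc39a14. Of 32851 RefSeq promoter windows of this length, 25.7% held at least 1 match, 7.11% at least 2, 1.97% at least 3 and 0.517% at least 4. These matches are descriptions of letters in a window. The RefSeq spans of Mt1 and Slc30a1 begin upstream of the start used for the window, so part of each stretch is also transcribed from another start. The nearest GENCODE M21 start of Mt1 lies at -7 from the RefSeq start used for its window. For Mt2 it lies 46 bases downstream of that gene's RefSeq start. Other GENCODE starts lie 122 and 152 bases downstream for Mt1 and 242 bases downstream for Mt2, past the ends of the windows. Matches between the window ends and those starts were not counted, so the counts for Mt1 and Mt2 may leave out elements that MTF-1 uses.

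The other genes lie apart on 4 chromosomes of GRCm38.p6. Mtf1 spans chr4:124802549-124849800, Slc30a1 spans chr1:191906697-191913248, Slc30a10 spans chr1:185454848-185468762 and Slc39a1 spans chr3:90248190-90253613, all on the forward strand, and Slc39a14 spans chr14:70303467-70351452 on the reverse strand. No source says that strand was used in counting, and reads that overlapping genes share could not be told apart: Mtf1 overlaps 1110065P20Rik, which had 989 to 1320 counts per sample, Slc30a10 overlaps Gm2061 with 82 to 147 counts and Slc30a1 overlaps 1700034H15Rik with 7 to 47 counts.

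Total counts were 52529048 to 58661404 in the vehicle samples and 57148535 to 58749115 in the STZ samples, and differences beyond sampling noise separated every pair of samples. As the check of the label, 10 astrocyte marker genes summed to 16728 to 20491 TPM (a level corrected for both transcript length and library size) in the vehicle samples and 16813 to 18178 TPM in the STZ samples. Of these markers 7 were lower and 3 higher in STZ, with a median log2 fold change of -0.15, and 4 were lower without overlap between the groups, against 9.85% of all tested genes: Aqp4 (-0.48), S1pr1 (-0.39), Aldh1l1 (-0.22) and Slc1a2 (-0.11). Higher without overlap was 1 of them, Gjb6 (0.27), against 8.64% of all tested genes. Markers of choroid plexus and ependymal cells, led by the thyroid hormone carrier Ttr, summed to 10509 to 29759 TPM in vehicle and 16040 to 26801 TPM in STZ, so RNA of these cells was also abundant in both groups. None of these 9 markers was at 0 in any sample. All 15 endothelial markers were higher in STZ, with a median log2 fold change of 1.10, 7 of them without overlap between the groups (8.64% of all tested genes were higher without overlap), and their summed level was 141 to 459 TPM in vehicle and 435 to 767 TPM in STZ. Of 9 pericyte and smooth muscle markers 8 were higher in STZ (88.9 to 132 TPM against 127 to 176 TPM), with a median log2 fold change of 0.87. Higher without overlap were 4 of them, Tagln (2.65), Myh11 (1.43), Acta2 (1.30) and Rgs5 (1.02), against 8.64% of all tested genes. DESeq2, an alternative test, gave an adjusted p under 0.05 to 4 of these 9 and to 1 of the 15 endothelial markers. It did so for 2.08% of the genes to which it gave an adjusted p. None of the endothelial or pericyte markers was at 0 in any sample. Summed levels of microglia and macrophage (548 to 803 TPM against 525 to 776 TPM), oligodendrocyte lineage (789 to 2050 TPM against 1027 to 2878 TPM) and neuron markers (51.7 to 95.4 TPM against 71.2 to 104 TPM, with Slc17a7 at 0 in some samples) overlapped between the groups. Of the 10 microglia and macrophage markers 1, Mrc1 (log2 fold change -0.82), was lower without overlap, against 9.85% of all tested genes, and 0 were higher without overlap. In such bulk RNA fewer cells of a type and less RNA per cell cannot be told apart.

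In length-corrected levels the metallothioneins stood far above the other members. Mt1 averaged 3089 TPM over the 6 samples (2150 to 4013 TPM) and ranked 27 among all genes, Mt3 averaged 1150 TPM (1027 to 1314 TPM; rank 89) and Mt2 averaged 612 TPM (419 to 836 TPM; rank 184). The order then ran from Slc39a14 at 18.1 TPM (14.5 to 23.8 TPM) and Slc30a10 at 17.5 TPM (14.1 to 23.4 TPM), whose ranges overlapped, to Slc30a1 at 10.3 TPM (9.12 to 10.997 TPM), Mtf1 at 7.62 TPM (6.71 to 8.10 TPM) and Slc39a1 at 3.17 TPM (2.73 to 4.54 TPM). Apart from Slc39a14 and Slc30a10, neighbours in this order had separate ranges. The summed level of the metallothioneins was 4072, 3606 and 4616 TPM in the vehicle samples and 5631, 6163 and 5019 TPM in the STZ samples, or 0.410% ± 0.0505 of all TPM in vehicle and 0.560% ± 0.0573 in STZ (SD, n = 3 each). Every STZ sum lay above every vehicle sum.

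The comparison of STZ with vehicle asks which of these genes differ in astrocytes of hyperglycemic mice. In each of the 3 STZ samples Mt1 and Mt2 exceeded their highest vehicle value and Slc30a10 stayed under its lowest, and for Mt3, Mtf1, Slc30a1, Slc39a1 and Slc39a14 the groups overlapped. Calls required a Benjamini-Hochberg adjusted p below 0.05 together with more than a 1.5-fold difference. By these criteria the quasi-likelihood test of edgeR called 0 of the 8 members, beside 5 of all 22337 tested genes (0.0224%). At an unadjusted p under 0.05 it gave 3 of 8 members, against 11.3% of all tested genes. By direction these were 2 higher members, against 5.63% of all genes, and 1 lower member, against 5.65%. Groups did not overlap for 3 of 8 members and for 18.5% of all tested genes, with 2 members higher (8.64% of all genes) and 1 lower (9.85%). DESeq2, run as an alternative, gave an adjusted p under 0.05 at any fold change to 2 of 8 members, Mt1 and Mt2, and to 2.08% of the genes it gave an adjusted p. Over the 8 members the median log2 fold change was 0.07, and over all tested genes it was 0.01.

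**Figure D1:**
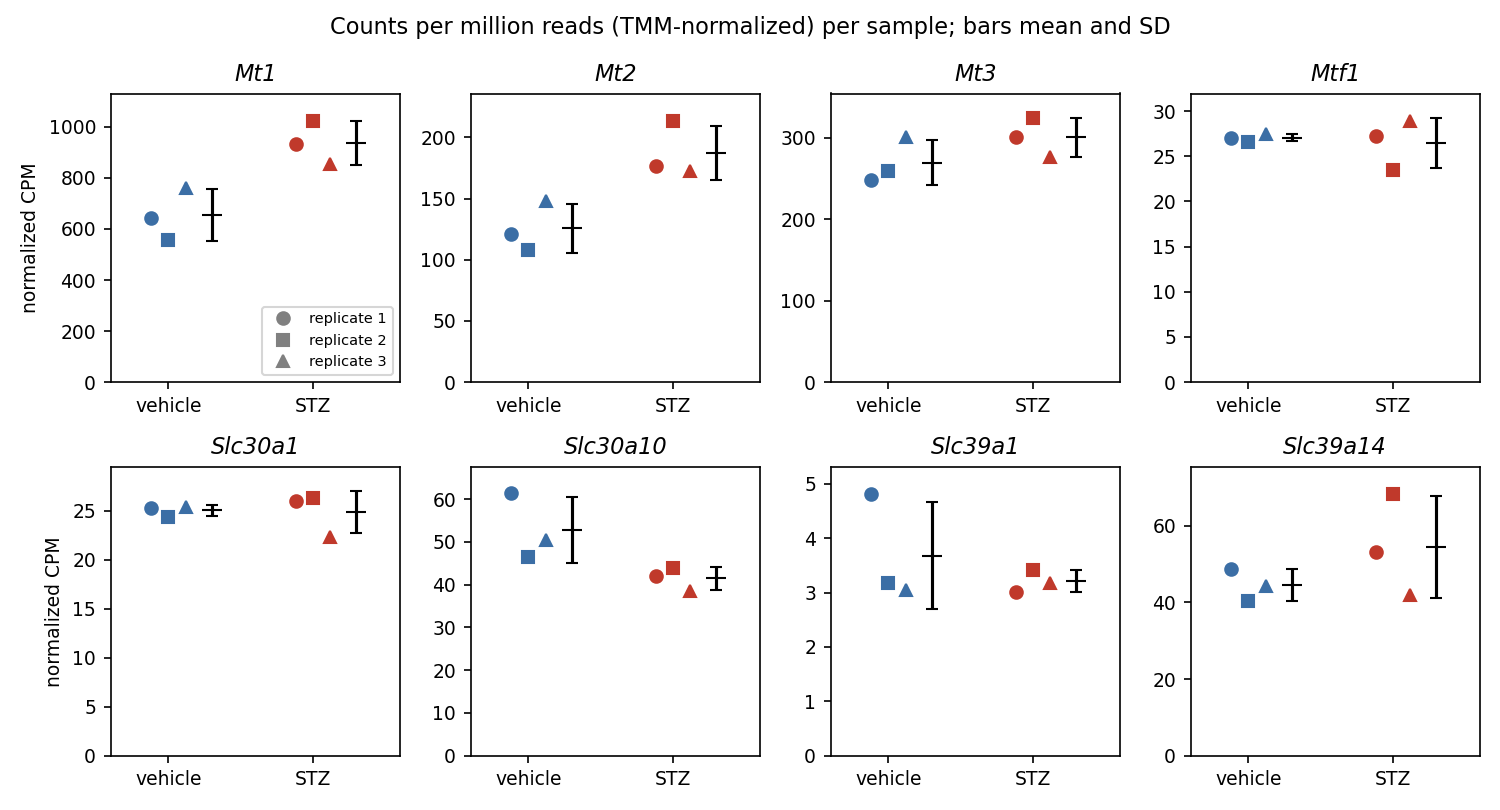
Normalized CPM of each of the 8 genes (vertical axis, from 0) in the 3 vehicle samples (blue) and 3 STZ samples (red), with the symbol giving the replicate number and black bars the mean and SD. For Mt1 all STZ samples lie at 853 or more and all vehicle samples at 760 or less, and for Slc30a10 all STZ samples lie at 43.8 or less and all vehicle samples at 46.5 or more.

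Mt1, the most abundant of the metallothioneins, had normalized CPM (read counts scaled to TMM library size) of 643, 558 and 760 in the vehicle samples and 932, 1023 and 853 in the STZ samples. All STZ samples were above all vehicle samples, with vehicle replicate 3 the nearest to them. The means were 654 ± 101 in vehicle and 936 ± 85.4 in STZ (SD, n = 3 each), a 1.43-fold difference with a log2 fold change of 0.52 (SE 0.130, 95% interval 0.21 to 0.82). This did not pass adjustment over all genes in edgeR's quasi-likelihood test (Benjamini-Hochberg adjusted p = 0.286). DESeq2 gave the same fold and an adjusted p of 0.0169, which was under the threshold for p while the fold was under 1.5.

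Mt2, whose product binds the same metals as that of Mt1, had normalized CPM of 121, 108 and 148 in vehicle and 177, 213 and 173 in STZ. The samples kept the order seen for Mt1, with STZ replicate 2 the highest and vehicle replicate 2 the lowest, and the groups did not overlap. The means were 126 ± 20.2 in vehicle and 187 ± 22.2 in STZ (SD, n = 3 each), a 1.49-fold difference and a log2 fold change of 0.58 (SE 0.134, 95% interval 0.27 to 0.89). The adjusted p was 0.258 in edgeR's quasi-likelihood test and 0.00999 in DESeq2, again with a fold under 1.5. Leaving out 1 sample at a time, DESeq2 kept an adjusted p under 0.05 in 3 of 6 fits for Mt1 and in 4 of 6 for Mt2. It was lost for both without vehicle replicate 2 (adjusted p = 0.121 and 0.117 in DESeq2) and without STZ replicate 2 (adjusted p = 0.206 and 0.160 in DESeq2), and for Mt1 also without STZ replicate 1 (adjusted p = 0.0962 in DESeq2).

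Mt3, first known as a growth inhibitory factor of the brain, had normalized CPM of 248, 260 and 301 in vehicle and 300, 324 and 277 in STZ. Vehicle replicate 3 lay above STZ replicates 1 and 3, so the groups overlapped. The means were 269 ± 27.7 and 300 ± 23.6 (SD, n = 3 each), with a log2 fold change of 0.16 (SE 0.0994, 95% interval -0.07 to 0.39) and an adjusted p of 0.578 in edgeR's quasi-likelihood test. The interval leaves room for a change of either sign.

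Ratios within a sample do not depend on how samples are scaled to each other. They were added after the values had been seen. The ratio of Mt1 to Mt3 read counts was 2.60, 2.15 and 2.53 in vehicle and 3.10, 3.16 and 3.08 in STZ, with means of 2.42 ± 0.241 and 3.11 ± 0.0400 (SD, n = 3 each). The ratio of Mt2 to Mt3 was 0.487, 0.417 and 0.492 in vehicle and 0.588, 0.658 and 0.625 in STZ. Both ratios were higher in every STZ sample than in any vehicle sample, and the two-sided exact permutation test gave p = 0.1 for each, the smallest value that 3 against 3 samples allow. The ratio of Mt1 to Mt2 was 5.33, 5.15 and 5.14 in vehicle and 5.28, 4.80 and 4.94 in STZ, with overlapping groups (exact permutation p = 0.3). Mt1 and Mt2 thus stood higher against Mt3 in STZ, and the share of Mt1 in the summed TPM of the metallothioneins was 61.6% ± 1.73 in vehicle and 65.1% ± 0.341 in STZ (SD, n = 3 each).

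**Figure D2:**
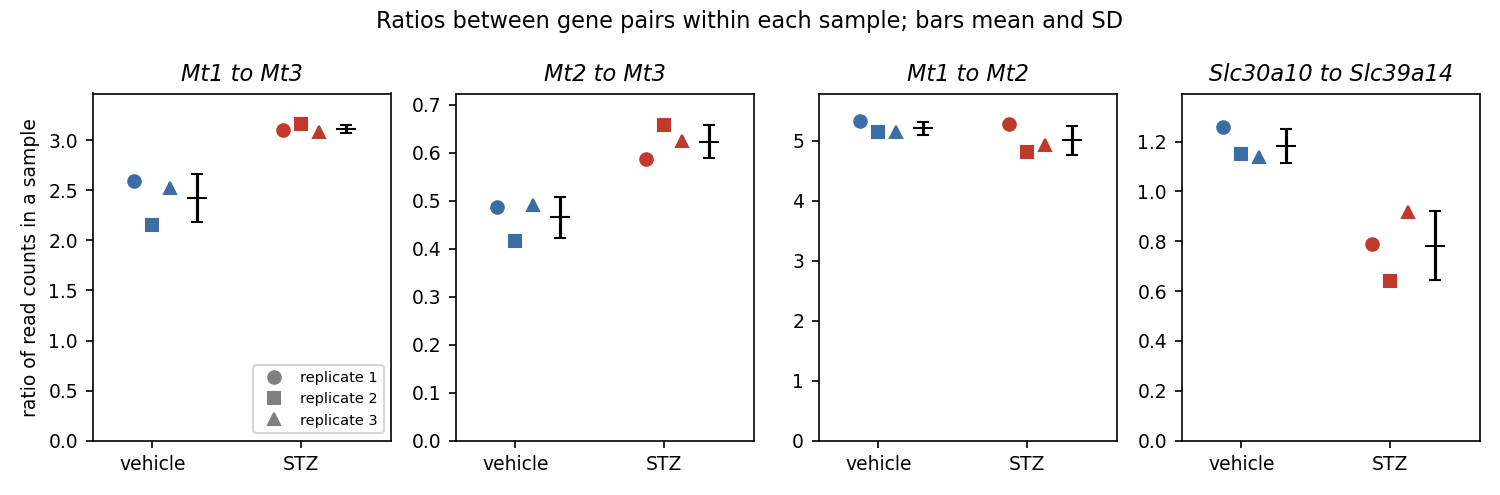
Ratio of the read counts of 2 genes within each sample (vertical axis, from 0) for 4 gene pairs, in vehicle (blue) and STZ (red) samples, with black bars giving the mean and SD. The Mt1 to Mt3 ratio lies between 2.15 and 2.60 in vehicle and between 3.08 and 3.16 in STZ, while the Mt1 to Mt2 ratios of the groups overlap.

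Mt1 and Mt2 followed each other from sample to sample. Over the 6 samples their log2 CPM had Pearson's r = 0.99 (two-sided exact permutation p = 0.00139, adjusted p = 0.0389 over 28 pairs of members) and Spearman's rho = 1.0 (exact permutation p = 0.00278, adjusted p = 0.0778). These permutations shuffled all 6 samples, which fall into 2 groups, so the difference between the groups enters both coefficients and their p. Without the 2 samples farthest from the median of Mt1 r was 0.98, and r of the deviations from the group means was 0.96, for which no p was computed. Mt3 followed them less closely, with r = 0.85 to Mt1 (exact permutation p = 0.0361, adjusted p = 0.363) and 0.86 to Mt2 (exact permutation p = 0.0389, adjusted p = 0.363). No other pair of the 28 had an adjusted p under 0.05 for either coefficient. Among 8821 genes at 16 CPM or more on average, those most like Mt1 by Pearson's r over the 6 samples were Taldo1 (0.992), Mt2 (0.991) and Klf6 (0.990), and those most like Mt2 were Mt1 (0.991), Vrk1 (0.981) and Raver1 (0.976). Taldo1, which encodes the pentose phosphate enzyme transaldolase, had a log2 fold change of 0.16, and Klf6, a transcription factor gene, one of 0.27.

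Mtf1, the gene of the metal-sensing regulator, had nearly equal means in the groups. Its normalized CPM were 27.1, 26.6 and 27.4 in vehicle and 27.2, 23.5 and 28.9 in STZ, so the STZ samples lay on both sides of the vehicle samples. The means were 27.0 ± 0.405 and 26.5 ± 2.77 (SD, n = 3 each), and the log2 fold change was -0.03 (SE 0.0965, 95% interval -0.25 to 0.20; adjusted p = 0.936 in edgeR's quasi-likelihood test). Without STZ replicate 2 the log2 fold change was 0.05.

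Of the exporters, Slc30a1, the plasma membrane zinc exporter and a known target of MTF-1, had normalized CPM of 25.3, 24.4 and 25.4 in vehicle and 26.0, 26.3 and 22.4 in STZ. The groups overlapped, with means of 25.1 ± 0.554 and 24.9 ± 2.18 (SD, n = 3 each). Its log2 fold change was -0.01 (SE 0.0924, 95% interval -0.23 to 0.21; adjusted p = 0.975 in edgeR's quasi-likelihood test) and 0.06 without STZ replicate 3.

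Slc30a10 had normalized CPM of 61.4, 46.5 and 50.3 in vehicle and 42.0, 43.8 and 38.5 in STZ. All STZ samples were below all vehicle samples, and vehicle replicate 1 was the highest. The means were 52.7 ± 7.70 and 41.4 ± 2.73 (SD, n = 3 each), with a log2 fold change of -0.35 (SE 0.114, 95% interval -0.61 to -0.08). It did not pass adjustment, at 0.349 in edgeR's quasi-likelihood test and 0.208 in DESeq2. Without vehicle replicate 1 the log2 fold change was -0.23, a value more than 1.5 times smaller.

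Of the importers, Slc39a14, which the liver is known to induce in inflammation, had normalized CPM of 48.7, 40.5 and 44.2 in vehicle and 53.2, 68.4 and 42.0 in STZ. STZ replicate 2 was the highest of all samples, but STZ replicate 3 lay below vehicle replicates 1 and 3. The means were 44.5 ± 4.14 and 54.5 ± 13.3 (SD, n = 3 each), and the log2 fold change was 0.29 (SE 0.170, 95% interval -0.10 to 0.69; adjusted p = 0.548 in edgeR's quasi-likelihood test). Without STZ replicate 2 it was 0.10. The ratio of Slc30a10 to Slc39a14 counts, the exporter and the importer that share manganese as a substrate, was 1.26, 1.15 and 1.14 in vehicle and 0.790, 0.641 and 0.916 in STZ, without overlap (exact permutation p = 0.1, the smallest possible). This pair was chosen after its values were seen, with the gene lower in STZ over the gene higher in STZ. A lower ratio in STZ was therefore built in, and the ratio and its p are description only.

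Slc39a1, a plasma membrane zinc importer, was the least abundant of the members, with normalized CPM of 4.81, 3.18 and 3.05 in vehicle and 3.02, 3.42 and 3.18 in STZ. Only vehicle replicate 1 stood above the rest. The means were 3.68 ± 0.980 and 3.21 ± 0.202 (SD, n = 3 each), and the log2 fold change was -0.20 (SE 0.236, 95% interval -0.75 to 0.35; adjusted p = 0.786 in edgeR's quasi-likelihood test) and 0.04 without that sample. Within groups, the SD of log2 CPM ran from 0.0944 for Slc30a1 and 0.110 for Mtf1 to 0.262 for Slc39a1 and 0.266 for Slc39a14, with 0.183 for Mt1 and 0.199 for Mt2, beside a median of 0.213 over all tested genes and 0.119 over genes at 16 CPM or more, a level that Slc39a1 did not reach.

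**Figure D3:**
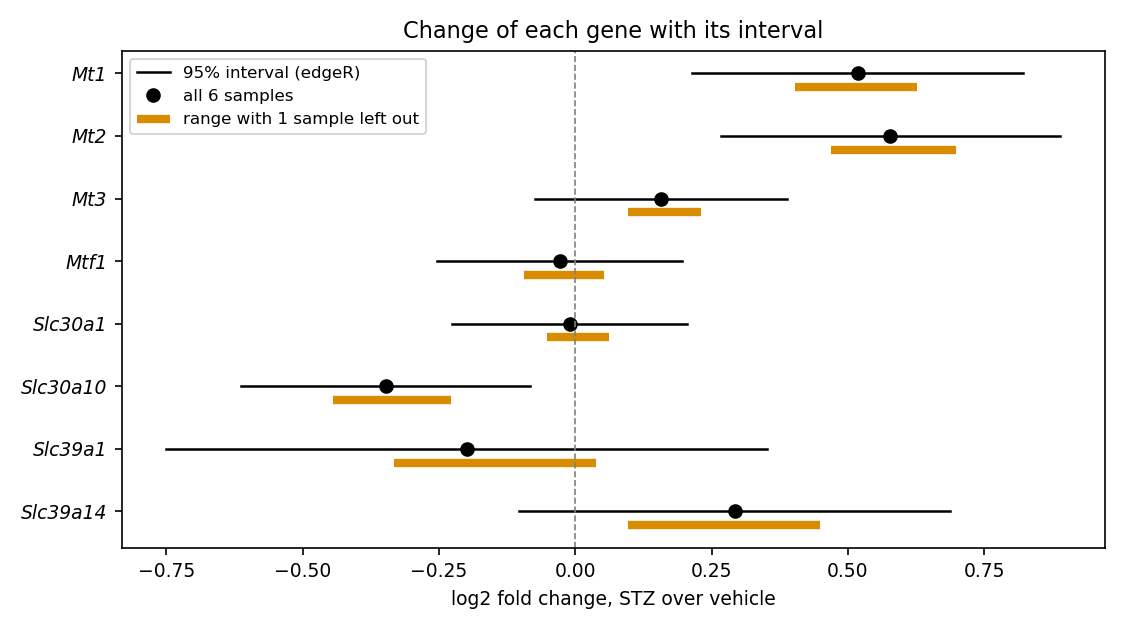
Log2 fold change of STZ over vehicle (horizontal axis) for the 8 genes, with points and black lines giving the edgeR estimate and its 95% interval from all 6 samples and orange bars the range when 1 sample is left out. The intervals of Mt1, Mt2 and Slc30a10 exclude 0 before adjustment over all genes, and the orange bars of Mtf1, Slc30a1 and Slc39a1 cross 0.

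Most of the remaining zinc genes had lower values in STZ. Of 23 other genes of zinc transport and sensing, 18 were tested, of which 17 were lower in STZ and 1, Slc39a8, was higher (log2 fold change 0.26, with overlapping groups; named after its value was seen), against 48.1% of all tested genes lower. Their median log2 fold change was -0.17, against 0.01 for all genes and -0.15 for the 10 astrocyte markers, of which 7 were lower; the part of the latter in the zinc gene values was not tested. None passed the threshold in edgeR or had an adjusted p under 0.05 in DESeq2, 8 had an unadjusted p under 0.05 in edgeR's quasi-likelihood test, all lower (5.65% of all tested genes), and the same number were lower without overlap (9.85% of all tested genes). Leaving out 1 sample at a time, the number lower was 14 to 17. With the 4 transporters among the members, 19 of 21 tested ZnT and ZIP genes were lower, and the smallest adjusted p was 0.324 in edgeR's quasi-likelihood test.

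Slc39a12 (ZIP12), a zinc importer of the brain, was the most abundant transporter at 734 TPM, and its normalized CPM were 1048, 900 and 970 in vehicle and 787, 849 and 852 in STZ. All STZ samples were lower, with a log2 fold change of -0.23 (adjusted p = 0.408 in edgeR's quasi-likelihood test). Slc39a3, a plasma membrane importer, had normalized CPM of 51.2, 45.1 and 51.2 in vehicle and 41.9, 41.5 and 35.8 in STZ and the smallest p of the families, with a log2 fold change of -0.31. Slc30a9, a mitochondrial zinc exporter, had 70.5, 76.9 and 74.9 in vehicle and 60.7, 58.2 and 67.8 in STZ, with a log2 fold change of -0.25. In each of these genes every STZ sample lay below every vehicle sample, by less than the fold threshold.

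Of the transporters known from the secretory pathway, none passed adjustment. Slc39a7 (ZIP7), which releases zinc from the endoplasmic reticulum, had a mean of 201 TPM and a log2 fold change of -0.15, and Slc39a13 (ZIP13) had 60.6 TPM and -0.16. Slc30a6 (64.8 TPM, log2 fold change -0.21) and Slc30a7 (9.81 TPM, -0.17), which load zinc into the secretory pathway, and Slc39a9 (21.4 TPM, -0.18) also had groups without overlap. Slc30a5, the partner of Slc30a6, was at 51.8 TPM with a log2 fold change of -0.04 and overlapping groups. Among the remaining importers, not grouped here by their place in the cell, Slc39a11 (27.9 TPM, -0.09), Slc39a6 (20.2 TPM, -0.08) and Slc39a10 (18.0 TPM, -0.02) also had overlapping groups. Slc39a4, a zinc importer known from the intestine, had 17.0 TPM and normalized CPM of 10.3, 25.9 and 23.5 in vehicle and 17.4, 13.9 and 21.2 in STZ. Its lowest sample, vehicle replicate 1, was also the sample with the lowest summed choroid plexus and ependymal markers (10509 TPM). The part of those cells in the Slc39a4 values was not tested. Slc30a2, Slc30a3, Slc30a8, Slc39a5, Mt4 and Gpr39 were under 1 TPM in every sample.

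**Figure D4:**
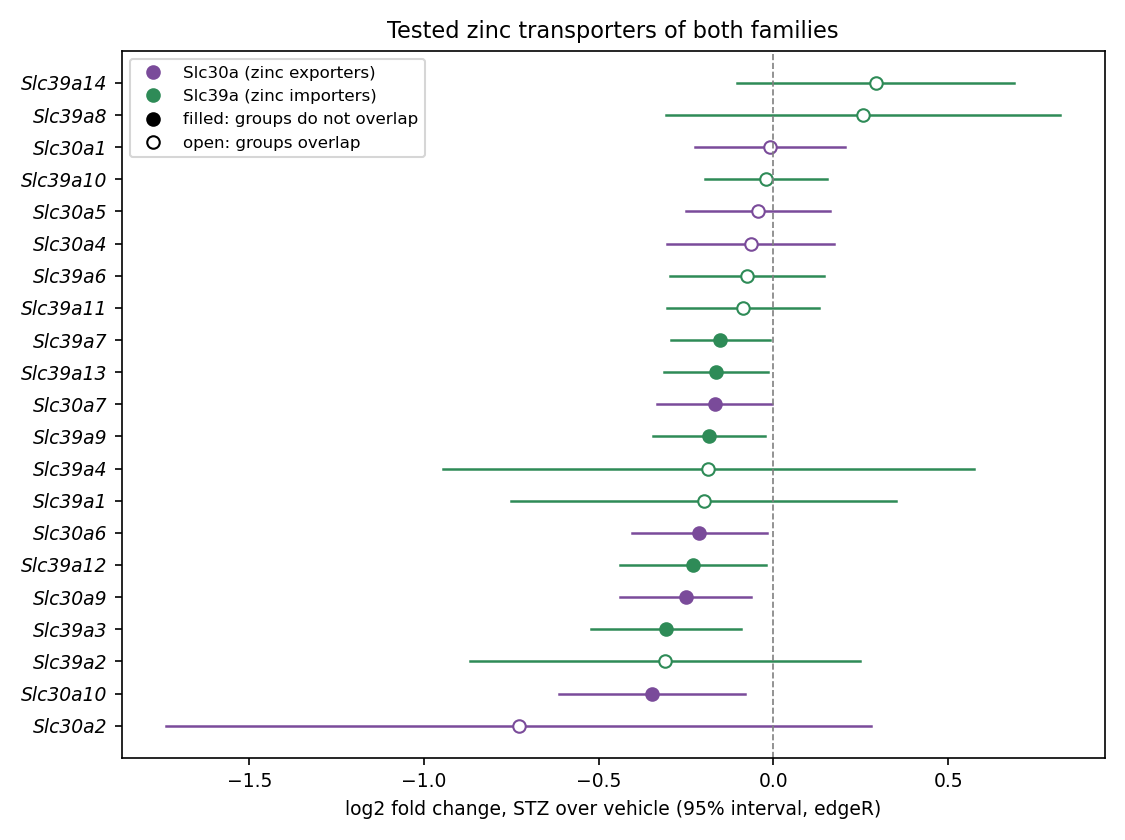
Log2 fold change of STZ over vehicle with its 95% interval from edgeR (horizontal axis) for the 21 tested zinc transporters, exporters in purple and importers in green, sorted by value, with filled points where the groups do not overlap. Slc39a14 and Slc39a8 lie above 0 and the other 19 below it, and 9 points are filled, all below 0.

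Other inputs known to act on Mt1 and Mt2 were described by lists of their usual targets. These lists were chosen with earlier results of these data known, and the paper already reports Fkbp5 as raised, so their counts are description only. Of 14 glucocorticoid-induced genes 13 were higher in STZ, with a median log2 fold change of 0.36, 7 higher at an unadjusted p under 0.05 and 4 at an adjusted p under 0.05 in DESeq2. Without overlap between the groups 7 of them were higher and 1 lower. Over all tested genes 51.9% were higher, 5.63% were higher at an unadjusted p under 0.05, 8.64% were higher without overlap and 9.85% lower without overlap. DESeq2 gave an adjusted p under 0.05 to 2.08% of the genes to which it gave an adjusted p. In edgeR the log2 fold changes were 1.91 for Fkbp5, a chaperone of the glucocorticoid receptor, 0.76 for Nfkbia, 0.50 for Per1 and 0.79 for Dusp1. Fkbp5 had normalized CPM of 4.25, 4.47 and 6.37 in vehicle and 26.1, 19.7 and 10.8 in STZ, and its adjusted p was 0.169 in edgeR's quasi-likelihood test. All 8 genes responsive to STAT3, the transcription factor of cytokine signalling, were higher with a median of 0.66, against the same shares of all genes, and 3 of them had an unadjusted p under 0.05, namely Cebpd (log2 fold change 0.88), Serpina3n (0.71) and Stat3 itself (0.25), and 2 had an adjusted p under 0.05 in DESeq2. Without overlap 3 of these were higher and 0 lower. Of 8 genes responsive to NRF2, the oxidative stress regulator, 4 were higher and 4 lower with a median of -0.01. Hmox1 (0.47), which encodes heme oxygenase, was the only one with an unadjusted p under 0.05 in edgeR and an adjusted p under 0.05 in DESeq2. Without overlap 2 of the 8 were higher, against 8.64% of all tested genes, and 0 lower. None of these genes passed the threshold in edgeR, and their part in the Mt1 and Mt2 values was not tested.

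Metallothioneins also bind copper. Of 12 genes of copper handling 7 were higher and 5 lower in STZ, with a median log2 fold change of 0.05. Cp, which encodes the copper-carrying ferroxidase ceruloplasmin, had the smallest p of the list, with a log2 fold change of 0.85, normalized CPM of 4.51, 6.11 and 9.65 in vehicle and 14.6, 12.9 and 9.06 in STZ, and overlapping groups. Endothelial cells also express Mt1 and Mt2. The summed endothelial markers, 141, 203 and 459 TPM in vehicle and 767, 603 and 435 TPM in STZ, were highest among vehicle samples in replicate 3 and lowest among STZ samples in replicate 3, as were Mt1 and Mt2. Replicates 1 and 2 ran in the opposite order. The endothelial sum was lower in replicate 1 than in replicate 2 in vehicle and higher in STZ. Mt1 and Mt2 were higher in replicate 1 than in replicate 2 in vehicle and lower in STZ. The part of endothelial cells in the Mt1 and Mt2 values was not tested.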

How the data were processed

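RNA of sorted astrocytes was measured in 3 vehicle and 3 STZ samples, grouped by the treatment label. The deposited table gives unnormalized read counts, whole numbers that the authors made by aligning reads to mm10 and quantifying genes with StringTie. The deposited TPM and FPKM values were also made by the authors, TPM being used here for levels and FPKM not being used. The submitters' processing notes name bcl2fastq 2.20.0, Trimmomatic 0.38, HISAT2 2.1.0, SAMtools 1.9 and StringTie 2.1.3b, and the annotation is not given in the sources used here. Every value column belonged to a mapped sample.

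Following the study's filter, genes without a 0 in any sample (smallest count 1) were tested two-sided with edgeR 4.0.16 in R 4.3.3 (TMM, quasi-likelihood test, a model with group alone, Benjamini-Hochberg adjustment over 22337 genes). The study's step that removes outlier genes was not repeated. The study's methods name DESeq2, which was an alternative here (version 1.42.0), as were other scalings and filters, the replicate block, robust fitting, limma 3.58.1 on log2(TPM + 1) and log2(TPM + 0.1), and leaving out each sample. Ratios with their alternatives, and leaving out samples in DESeq2, were added after the data were seen. Log2 CPM used a prior count of 2. Total counts of 52529048 to 58749115 put 3 counts at 0.0511 to 0.0571 CPM, which covers counting error only. The code of both fits was tried on simulated counts with known changes. Their spread was the one edgeR had estimated, so the trial cannot decide between the edgeR and DESeq2 calls. Python 3.11.15 and Biopython 1.88 made the tables and alignments.

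The members and all gene lists were chosen with earlier results of these data known. Named were all members, other zinc genes with an unadjusted p under 0.05 or a mean of 10 TPM or more, symbols of those under 1 TPM, at most 4 genes of each other list by smallest unadjusted p under 0.05, and the 3 genes most like Mt1 and Mt2. Markers of astrocytes, pericytes and smooth muscle, and microglia without overlap between the groups were also named.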

Additional observations from a re-analysis of the deposited data

How the results depend on the processing

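Mt1, Mt2, Mt3, Slc30a10 and Slc39a14 kept their direction under all 16 alternatives run for each, other scalings included. DESeq2 moved Mt1 (log2 fold change 0.51) and Mt2 (0.57) under an adjusted p of 0.05, and Mt2 also in the fit with the replicate number as a block (0.58, adjusted p = 0.0430 in DESeq2), where Mt1 did not pass (adjusted p = 0.0615 in DESeq2). Over the 10 alternatives that keep all samples the adjusted p ran from 0.0169 to 0.601 for Mt1 and from 0.00999 to 0.600 for Mt2, the lowest from DESeq2 and the highest from edgeR with the block. Leaving out 1 sample in edgeR gave log2 fold changes of 0.40 to 0.63 for Mt1, 0.47 to 0.70 for Mt2, 0.10 to 0.23 for Mt3, -0.44 to -0.23 for Slc30a10 and 0.10 to 0.45 for Slc39a14. It turned the sign of Mtf1 (-0.093 to 0.053, without STZ replicate 2), Slc30a1 (-0.052 to 0.061, without STZ replicate 3) and Slc39a1 (-0.33 to 0.037, without vehicle replicate 1). The 4 ratios kept their sign in TPM and without each sample.

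The 5 genes called by edgeR became 234 with DESeq2, 3 with upper-quartile scaling, 10 with robust fitting, 10 at an adjusted p under 0.1 with no fold threshold, 0 with limma on log2(TPM + 1) and on log2(TPM + 0.1) (2635 and 2612 at an unadjusted p under 0.05), and 0 to 1 without each sample; the cause was not tested. With the replicate block 0 genes were called in edgeR, where 1793 had an unadjusted p under 0.05, and 124 in DESeq2. Same-numbered samples did not deviate together (correlations of -0.101, -0.162 and -0.184), and the samples are different pools, so the numbers do not pair them. With 3 pools a group, differences of the size seen for Mt3 or Slc39a14 were not resolved.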
